A study of Mus musculus with 25 samples.

Results

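The 10 genes described here are the core of the unfolded protein response, the program that a cell switches on when misfolded protein builds up in the endoplasmic reticulum. They are Xbp1, Dnajb9, Atf6, Hspa5, Hsp90b1, Calr, Herpud1, Atf4, Ddit3 and Ppp1r15a, and all 10 were among the 8829 genes measured in the gastrocnemius. The set was assembled around Xbp1 after its level in thymol and control mice was known, so the members were selected on measured values and their difference between the groups is given as a description without a test. Gastrocnemius, a calf muscle of mainly fast fibres, was taken from 25 male SAMP8 mice, an inbred line selected for early signs of ageing. Mice received vehicle (control, n = 11) or thymol, a terpenoid of thyme, at 20 mg/kg on each dosing day (n = 14), by oral gavage for 3 months beginning when they were 8 months old. All animals in both groups carried the SAMP8 background, so there was no group with a normal rate of ageing. Each mouse had its own library and is named by its group and the last number of its label.

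The sensors IRE1, ATF6 and PERK in the membrane of the endoplasmic reticulum start the response. IRE1 removes a short intron from Xbp1 messenger RNA, and only the spliced form encodes the active transcription factor, which raises genes of folding, secretion and degradation, among them Dnajb9. ATF6 travels to the Golgi, is cut there and enters the nucleus to raise chaperone genes such as Hspa5, Hsp90b1 and Calr. PERK slows translation by phosphorylating eIF2alpha, while translation of Atf4 increases, and ATF4 raises Ddit3, which encodes the death-promoting factor CHOP, and Ppp1r15a, which encodes GADD34, the partner that brings a phosphatase back to eIF2alpha. Skeletal muscle holds a specialized form of this organelle, the sarcoplasmic reticulum, which stores the calcium for contraction. The 3′ tag libraries count transcript ends, so they give the total of Xbp1 messenger RNA and not its spliced share, nor the cleavage of ATF6 or the phosphorylation of eIF2alpha.

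The DNA just before the start of transcription differs between the members in the elements by which these branches act on a gene. In the windows of RefSeq (GRCm38.p6), which run from 250 bases before to 50 bases after a start, the endoplasmic reticulum stress element ERSE (CCAAT, then 9 bases of any kind, then CCACG, searched on both strands), the site of ATF6 with NF-Y, was present in Hspa5, Hsp90b1 and Calr. A window was at hand for 9 of the 10 members, Atf6 being the exception. Of all 32851 windows, 39 (0.119%) held an ERSE. The related ERSE-II (ATTGG, 1 base, CCACG) was present in Herpud1 and in 12 windows in all (0.037%). The core of the UPRE (TGACGTG), bound by XBP1 and ATF6, was present in Hspa5 and in 2.012% of windows, and the composite site of ATF4 with C/EBP factors (TGATG, 1 base, AA) was present in Herpud1 and in 3.969%. Every ERSE and ERSE-II also holds a CCAAT box (CCAAT), which 37.408% of windows hold. None of the 4 stress elements was found in the windows of Xbp1, Dnajb9, Atf4, Ddit3 or Ppp1r15a, which says only that these letters were not in those bases. The 250 bases before the start are shown for the 4 members with a stress element and for Xbp1, which has none, 5′ to 3′ on the strand of the gene, with the fixed bases of ERSE and ERSE-II and the whole of the other elements in capitals.
Hspa5 (plus strand, chr2:34771840-34772089): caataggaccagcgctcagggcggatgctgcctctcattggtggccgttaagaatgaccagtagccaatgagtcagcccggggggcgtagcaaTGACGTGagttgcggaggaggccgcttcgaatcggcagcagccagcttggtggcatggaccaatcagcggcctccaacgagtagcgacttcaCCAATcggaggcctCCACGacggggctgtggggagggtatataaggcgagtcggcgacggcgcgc
Hsp90b1 (minus strand, chr10:86705445-86705694): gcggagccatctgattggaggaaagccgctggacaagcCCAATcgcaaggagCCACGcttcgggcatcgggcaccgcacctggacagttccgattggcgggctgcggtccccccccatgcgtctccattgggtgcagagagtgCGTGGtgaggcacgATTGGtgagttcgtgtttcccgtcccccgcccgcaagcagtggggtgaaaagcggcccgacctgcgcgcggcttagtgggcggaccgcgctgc
Calr (minus strand, chr8:84846932-84847181): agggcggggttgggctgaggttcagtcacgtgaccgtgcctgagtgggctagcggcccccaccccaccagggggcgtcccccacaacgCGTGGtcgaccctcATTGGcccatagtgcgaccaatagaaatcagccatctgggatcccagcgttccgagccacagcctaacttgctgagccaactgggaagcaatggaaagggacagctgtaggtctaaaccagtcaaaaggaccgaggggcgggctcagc
Herpud1 (plus strand, chr8:94386179-94386428): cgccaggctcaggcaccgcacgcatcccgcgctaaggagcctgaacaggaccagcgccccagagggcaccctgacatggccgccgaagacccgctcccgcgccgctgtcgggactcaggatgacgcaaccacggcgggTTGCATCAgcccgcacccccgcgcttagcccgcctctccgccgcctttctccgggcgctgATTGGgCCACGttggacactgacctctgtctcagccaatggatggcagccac
Xbp1 (plus strand, chr11:5520391-5520640): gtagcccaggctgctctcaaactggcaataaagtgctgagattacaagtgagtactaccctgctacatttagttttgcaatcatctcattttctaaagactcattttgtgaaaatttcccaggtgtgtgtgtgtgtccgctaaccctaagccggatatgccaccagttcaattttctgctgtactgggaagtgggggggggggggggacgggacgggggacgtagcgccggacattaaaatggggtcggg

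**Figure D1:**
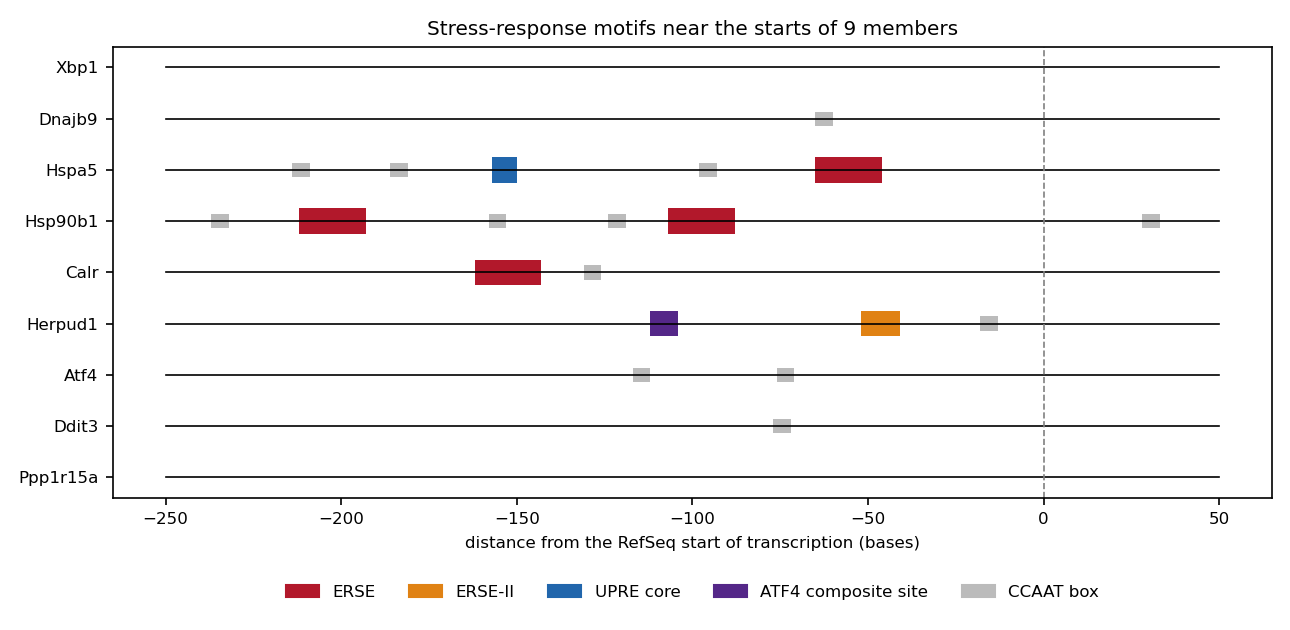
Positions of the stress elements and CCAAT boxes in the windows of 9 members, as distance in bases from the RefSeq start of transcription (dashed line); a CCAAT box inside an ERSE or ERSE-II is covered by the longer element. Hsp90b1 has 2 ERSE, at -212 to -194 and -107 to -89, Hspa5 has 1 at -65 to -47 beside a UPRE core at -157 to -151, and Calr has 1 at -162 to -144.

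The ERSE of Hspa5 began 65 bases before the start of transcription. The 2 ERSE of Hsp90b1 lay on opposite strands, and that of Calr lay on the strand opposite to the gene. Among 9105 windows of genes in the expression table, 10 held an ERSE (0.11%), and these 3 chaperone genes were among them.

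Between 4463818 and 9463418 reads stood behind each mouse, and the medians were 7554333 reads for control and 7479077 reads for thymol. All 10 skeletal muscle markers were in the table and their summed level was 145800 to 192400 CPM in control and 155000 to 188700 CPM in thymol mice. Thymol and control were compared by limma with Benjamini-Hochberg adjustment over all genes, and 0 of 8829 genes reached an adjusted p under 0.05 (0%), so that 0 of the 10 members did. With voom on the recovered reads the number was also 0. At an unadjusted p under 0.05 there were 162 genes higher (1.83%) and 150 lower (1.7%) with thymol. In whole muscle, fewer cells of a type and less RNA per cell cannot be told apart.

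Expressed as log2 CPM (log2 of a gene's count scaled to a common library size with TMM factors), levels can be set side by side between genes, since a transcript gives about the same number of tags whatever its length. In control mice the order of mean level was Atf4 at 8.26, Hspa5 at 7.96, Calr at 6.89, Hsp90b1 at 6.76, Herpud1 at 6.55, Xbp1 at 4.72, Ddit3 at 4.54, Atf6 at 4.195, Dnajb9 at 3.89 and Ppp1r15a at 3.53. The chaperones, Herpud1 and Atf4 thus lay above the transcription factors Xbp1, Ddit3 and Atf6. The neighbours Calr and Hsp90b1, Xbp1 and Ddit3, Ddit3 and Atf6, Atf6 and Dnajb9, and Dnajb9 and Ppp1r15a lay closer together than the larger of their SDs between control mice. The median number of reads per mouse behind a value ran from 77 for Ppp1r15a, 108 for Dnajb9, 132 for Atf6, 175 for Xbp1 and 194 for Ddit3 to 1836 for Hspa5 and 2250 for Atf4.

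In the IRE1 branch, Xbp1 itself was lower with thymol. Its level in log2 CPM had a lowest, median and highest value of 4.22, 4.67 and 5.07 in control mice and 4.09, 4.40 and 4.68 in thymol mice. Of the 14 thymol mice, 12 lay below the control median, and 5 control mice lay above every thymol mouse, but the groups overlapped, with the other 6 control mice within the thymol range. The means were 4.72 ± 0.219 (SD, n = 11) and 4.42 ± 0.159 (SD, n = 14), a log2 difference of -0.30 ± 0.080 (SE), or 0.812-fold. A difference of this size or larger in either direction was found for 245 of the 8829 genes. Leaving out each mouse in turn gave -0.35 to -0.27. With 112 to 256 reads behind each value, counting error alone gave an SD of 0.110, which is 34.5% of the variance of Xbp1 between mice of a group.

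Dnajb9, a co-chaperone of the endoplasmic reticulum and a direct target of spliced XBP1, had nearly equal medians. It ranged from 3.40 to 4.38 in control (median 3.93) and from 3.40 to 4.27 in thymol mice (median 3.91). The log2 difference was -0.02 ± 0.121 (SE), and 8 of the 14 thymol mice lay below the control median. Dnajb9 shares 8.6% of the 31-base words at its transcript end with Gm6568, so reads from these words could be split or dropped in counting.

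Atf6, the sensor of its own branch, ranged from 3.82 to 4.57 in control (median 4.25) and from 3.75 to 4.49 in thymol mice (median 4.05). Of the thymol mice, 12 of 14 lay below the control median, and the groups overlapped over nearly their whole range. The log2 difference was -0.11 ± 0.090 (SE). Counting error made up 35.7% of its variance between mice.

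The 3 chaperones with an ERSE differed between the groups by less than their errors. Hspa5, the abundant Hsp70 chaperone BiP that holds the sensors inactive, had a lowest, median and highest log2 CPM of 7.77, 7.94 and 8.38 in control and 7.73, 7.88 and 8.43 in thymol mice, with a log2 difference of -0.02 ± 0.069 (SE). Hsp90b1, the Hsp90 chaperone GRP94, had values of 6.55, 6.73 and 7.15 in control and 6.56, 6.78 and 7.02 in thymol mice, with a log2 difference of 0.005 ± 0.066 (SE). At its transcript ends Hsp90b1 shares 4.0% of the 31-base words with Gm15344, which overlaps it on the same strand outside the last exon. Reads from these words could be split or dropped in counting. Calr, which encodes the calcium-binding lectin chaperone calreticulin, had values of 6.59, 6.86 and 7.27 in control and 6.69, 6.89 and 7.11 in thymol mice, with a log2 difference of 0.008 ± 0.064 (SE). Herpud1, a membrane protein of the degradation complex and the bearer of the ERSE-II, had values of 6.40, 6.49 and 6.94 in control and 6.25, 6.60 and 6.98 in thymol mice, with a log2 difference of 0.02 ± 0.071 (SE). All 4 differences were smaller than their SE, and each changed sign when a single mouse was left out. These were deeply counted genes, in which counting error was 3.70% of the variance for Hspa5 and 9.39% to 10.1% for the other 3.

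In the PERK branch the members differed among themselves. Atf4, the transcription factor of the branch and the most abundant member, had a lowest, median and highest log2 CPM of 7.94, 8.25 and 8.46 in control and 7.93, 8.16 and 8.34 in thymol mice. Its log2 difference was -0.09 ± 0.064 (SE), and 3 control mice lay above every thymol mouse.

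Ppp1r15a showed the largest difference of the 10 members. Its log2 CPM ran from 2.98 to 4.24 in control mice (median 3.63) and from 2.51 to 3.57 in thymol mice (median 3.14). All 14 thymol mice lay below the control median, 5 of them lay below every control mouse and 6 control mice lay above every thymol mouse, yet the other 5 control mice, control 10, control 18, control 23, control 31 and control 35, lay within the thymol range. The means were 3.53 ± 0.408 (SD, n = 11) and 3.13 ± 0.334 (SD, n = 14), a log2 difference of -0.40 ± 0.144 (SE), or 0.757-fold. A difference at least as large in size was found for 68 of the 8829 genes. Only 38 to 143 reads stood behind each value, and counting error was 21.5% of the variance. The last exon of Ppp1r15a is overlapped on the other strand by Tulp2. The strand setting of the counting was not given in the sources used here, so whether reads of these genes were counted apart is not known. Tulp2 itself was not among the 8829 genes of the table.

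Ppp1r15a is also a rapidly induced gene, and the level of 16 immediate-early genes of a list of 21 moved in the same direction. Their mean log2 CPM was 4.18 ± 0.246 for control (SD, n = 11, from 3.89 to 4.79) and 3.98 ± 0.206 for thymol (SD, n = 14, from 3.60 to 4.37). Of the 16, 14 had a lower mean with thymol, as did 4454 of all 8829 genes. The summed level of the 16 was 363.5 to 683.7 CPM in control and 329.8 to 475.2 CPM in thymol mice. Between mice of a group, Ppp1r15a and this level had a Pearson r of 0.31 (permutation p = 0.146, adjusted p = 0.677), and the part of these genes in the difference of Ppp1r15a was not tested.

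Ddit3 lay in the opposite direction, and 1 mouse decided its value. Its log2 CPM ran from 2.73 to 5.08 in control mice (median 4.69) and from 3.91 to 5.19 in thymol mice (median 4.79). The log2 difference was 0.20 ± 0.181 (SE), and it was 0.02 without control 19. That mouse had 49 reads of Ddit3, while every other mouse had at least 136. Control 19 was also the mouse with the highest Xbp1, at 5.07, and lay farthest out on the third principal component of all genes, which held 6.74% of the variance. In the annotation used here, a second gene model of the same name overlaps the beginning of the last exon of Ddit3 on the same strand. The overlap ends at base 127293753, while the exon runs from 127293712 to the transcript end at 127294582. Reads in the overlap could be split or dropped in counting, but the libraries count transcript ends, which lie outside it.

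**Figure D2:**
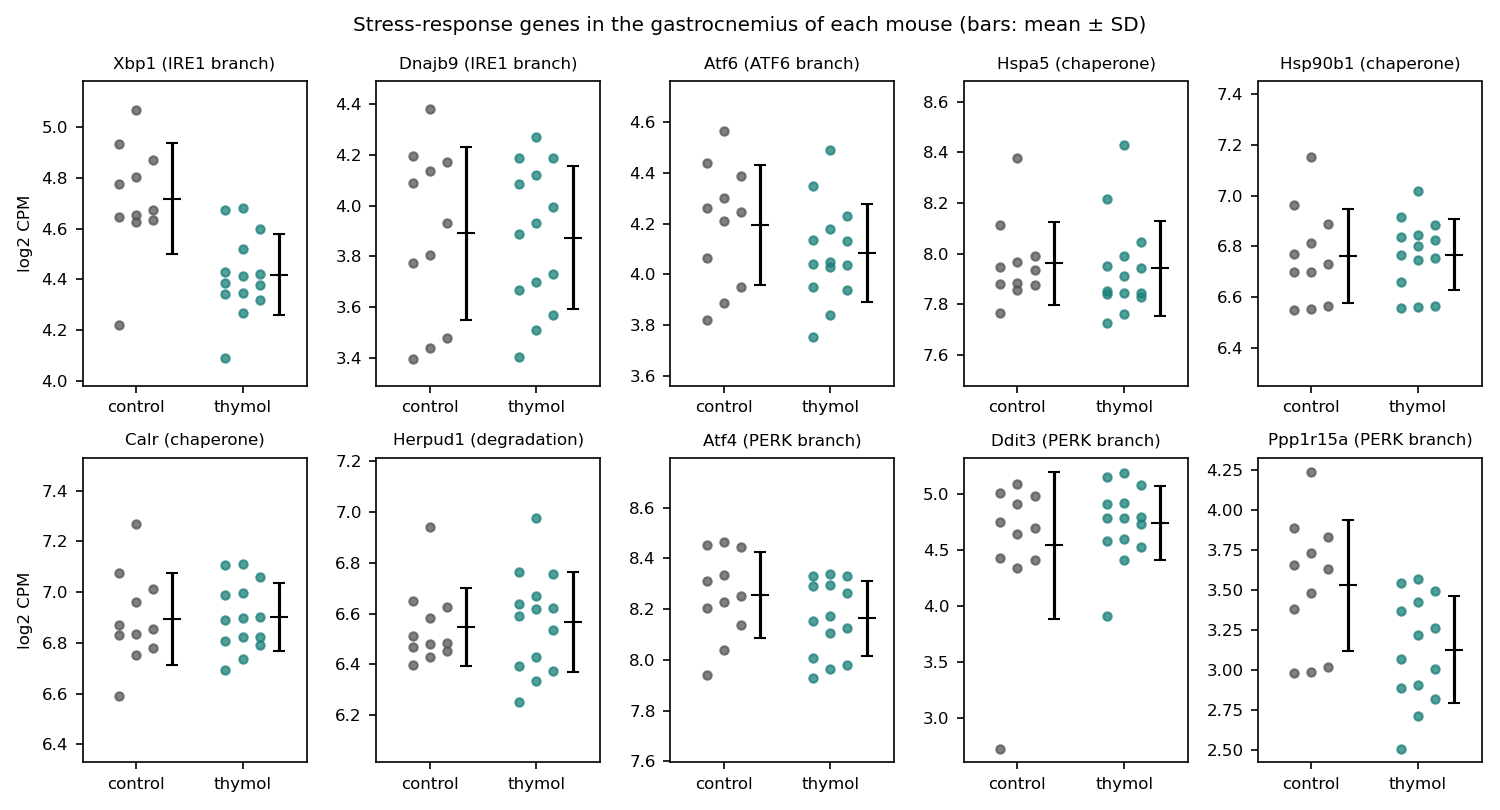
Level of each member in log2 CPM (vertical axes, which differ in range between panels and do not start at 0) in the 11 control (grey) and 14 thymol (green) mice, 1 point per mouse, with mean ± SD beside the points. Xbp1 and Ppp1r15a lay lower with thymol with overlapping groups, the chaperones lay level, and the low point of Ddit3 at 2.73 is control 19.

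Control 18, thymol 20 and control 19 stood farthest out on the principal components of all genes. Without these 3 mice the log2 difference was -0.24 for Xbp1, -0.46 for Ppp1r15a, -0.13 for Atf6, -0.11 for Atf4 and 0.07 for Ddit3. Of the 10 members, 6 had a lower and 4 a higher mean with thymol, and their median log2 difference was -0.02, beside -0.001 for all 8829 genes. Among all genes, 4454 had a lower and 4375 a higher mean.

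The genes around the members were described with 6 lists, written with earlier results of these data known. Of their 117 genes, 93 were in the table. Over all 6 lists 37 genes had a higher and 56 a lower mean with thymol, and 0 passed the adjusted threshold. Over the whole table, 4375 genes had a higher and 4454 a lower mean. At an unadjusted p under 0.05 (limma) 0 list genes were higher and 5 lower. Among all 8829 genes, 162 were higher (1.83%) and 150 lower (1.7%) at that p. Whether the lists differ from all genes was not tested. In the IRE1 and XBP1 list 6 of 17 genes were higher and 11 lower (median log2 difference -0.02). Ern1, which encodes IRE1 itself, averaged 2.39 ± 0.315 (SD) over the 11 controls and 2.66 ± 0.294 (SD) over the 14 treated mice, a log2 difference of 0.27 ± 0.133 (SE) opposite in sign to that of Xbp1. It did not pass the test (unadjusted p = 0.0524, adjusted p = 0.9999, limma), and 12 of 14 thymol mice lay above the control median. Sec61b, a subunit of the translocation channel, had the lowest value in this list at -0.58 ± 0.442 (SE, unadjusted p = 0.2, limma), with an SD between mice of 1.04 in control and 1.34 in thymol. The median number of reads per mouse was only 41 for Ern1 and 22 for Sec61b, fewer than for any member.

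In the PERK and ATF4 list 6 of 18 genes were higher and 12 lower (median -0.07). Those with an unadjusted p under 0.05 were Vldlr, a lipoprotein receptor raised by ATF4, with a log2 difference of -0.26 ± 0.104 (SE; p = 0.0186), and Aars, an alanyl-tRNA synthetase, at -0.16 ± 0.078 (SE; p = 0.0453, both limma, adjusted p = 0.9999). Of the aminoacyl-tRNA synthetases, Nars had the smallest p among higher genes, with a log2 difference of 0.09 ± 0.060 (SE; p = 0.139, limma). Named after their values were seen, Atf3 was at -0.70 ± 0.421 (SE), Ddit4 at -0.46 ± 0.334 and Chac1, a target of ATF4 with CHOP, at -0.45 ± 0.307, and none of these had an unadjusted p under 0.05. Atf3 is also among the immediate-early genes described above, so it is counted in both lists. Of the listed genes, 11 were not in the table, among them Eif2ak3, which encodes PERK, and the ATF4 targets Trib3 and Asns. These 11 were not analysed here.

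In the ATF6 list 3 of 8 genes were higher and 5 lower (median -0.05), and Manf, a secreted stress protein, was at -0.14 ± 0.117 (SE; p = 0.240) and the membrane-bound factor Creb3l2 at 0.10 ± 0.134 (SE; p = 0.447, both limma). The chaperones and disulfide enzymes had the reverse split, with 14 of 17 higher and 3 lower and a median of 0.06, although no gene of that list had an unadjusted p under 0.05. Uggt1, the glucosyltransferase that returns misfolded glycoproteins to calreticulin and calnexin, was at 0.11 ± 0.065 (SE; p = 0.109), and Pdia3, the disulfide isomerase that works with calreticulin, at -0.05 ± 0.079 (SE; p = 0.504, both limma).

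In the degradation list 8 of 23 genes were higher and 15 lower (median -0.02). The 2 with an unadjusted p under 0.05 were Faf2, a recruiter of the p97 ATPase, at -0.25 ± 0.098 (SE; p = 0.0144) and Ube2j2, a ubiquitin-conjugating enzyme, at -0.21 ± 0.091 (SE; p = 0.0286, both limma, adjusted p = 0.9999). The ubiquitin ligase Rnf139 was at 0.17 ± 0.099 (SE; p = 0.0953, limma). Vcp, which encodes p97 and is named after its value was seen, was at -1.06 ± 0.654 (SE), with SDs between mice of 2.20 in control and 1.51 in thymol, and this was the lowest log2 difference of the whole table. In the list of stress kinases and cell death genes all 10 had a lower mean with thymol, but the median was only -0.03, and Bak1, a pore-forming protein of apoptosis, was the sole gene with an unadjusted p under 0.05, at -0.31 ± 0.123 (SE; p = 0.0186, limma).

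**Figure D3:**
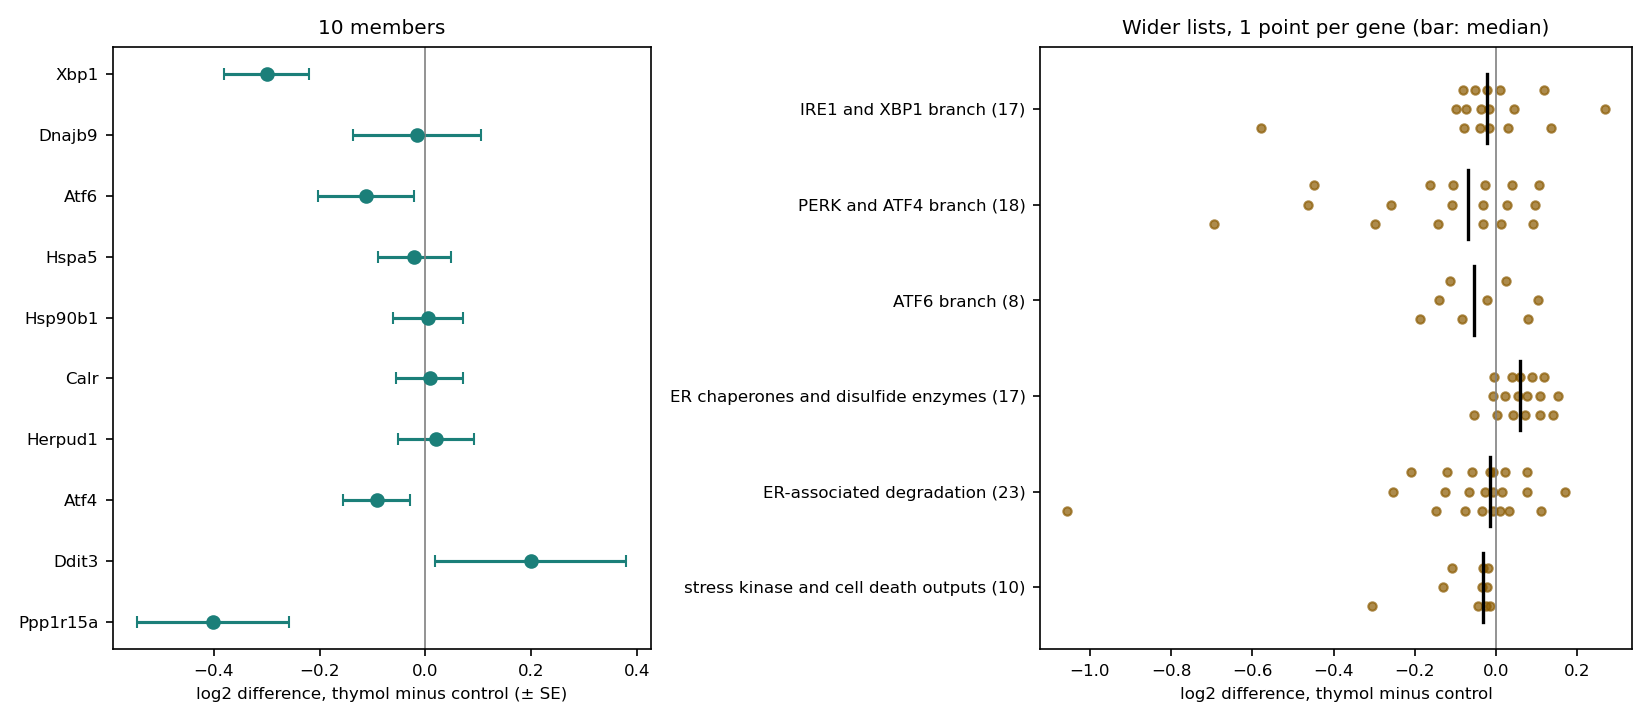
Left, log2 difference between thymol and control (± SE, limma) of the 10 members; right, the same quantity for each gene of the 6 wider lists (1 point per gene, number of genes in parentheses, bar at the median). Xbp1 at -0.30 and Ppp1r15a at -0.40 lay apart from the chaperones, which lay between -0.02 and 0.01, and the list medians lay between -0.07 and 0.06.

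Whether the members rise and fall together was examined between mice of the same group, after each group's mean was removed, which sets aside the difference on which they were chosen. Over the 45 pairs the Pearson r ran from -0.39 to 0.62 with a median of 0.13, and 25 pairs were above 0. The median r of all pairs of genes in the table was -0.001. At an adjusted p under 0.05 (permutations of mice within groups, Benjamini-Hochberg over 45 pairs) 1 pair was called, Hspa5 with Hsp90b1. Of all 38971206 pairs of genes, 0.339% had an r at least that far from 0. These chaperones share the ERSE, which Calr also holds, and work in the same folding complex in the lumen. Whether either has a part in their relation between mice was not tested.

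Hspa5 and Hsp90b1 had an r of 0.62 (permutation p = 0.00079, adjusted p = 0.0356) and a Spearman rho of 0.40 (permutation p = 0.0488, adjusted p = 0.316). The r was 0.75 within control and 0.53 within thymol mice. Control 31 was at 8.38 for Hspa5 and 7.15 for Hsp90b1, the highest control mouse in both, and thymol 6 was at 8.43 and 6.92. Without these 2 mice, the farthest from the median of Hspa5, r was 0.46 (permutation p = 0.0310, not adjusted). The call was lost without control 31, where r was 0.49 (adjusted p = 0.326), the lowest r with a single mouse left out. It was also lost without any of thymol 6, thymol 7, thymol 9, thymol 22, thymol 24, thymol 34, control 10, control 15, control 23 or control 32. There r was 0.58 to 0.64, near the 0.62 of all mice, and the adjusted p 0.0508 to 0.120. The call thus stood close to the threshold, and the size of r rested in part on control 31.

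Of the other pairs, 3 had an unadjusted permutation p under 0.05 and did not pass the adjustment. Atf6 and Atf4 had an r of 0.49 (p = 0.0168), Atf6 and Ppp1r15a an r of 0.45 (p = 0.0290) and Hspa5 and Atf4 an r of 0.43 (p = 0.0321), each by permutation with an adjusted p of 0.361. The first and second were 0.50 and 0.46 without control 23 and thymol 28, and the third was 0.31 without thymol 6 and control 31. Calr, the other ERSE gene, had an r of 0.18 with Hspa5 and 0.33 with Hsp90b1, neither called, and a rho of 0.49 with Hsp90b1 (permutation p = 0.0155, adjusted p = 0.316).

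Xbp1 was in no called pair. Its r ran from -0.39 with Ddit3 to 0.31 with Hsp90b1, and was 0.23 with Dnajb9, 0.15 with Hspa5 and -0.03 with Ppp1r15a, the other member that lay lower with thymol. The r of -0.39 with Ddit3 (permutation p = 0.107) became 0.03 without control 19, which had the highest Xbp1 and lowest Ddit3, and thymol 24, which had the lowest Xbp1 and highest Ddit3. By rank, Xbp1 had a rho of 0.47 with Hsp90b1 (permutation p = 0.0223) and 0.41 with Calr (permutation p = 0.0492), both with an adjusted p of 0.316. Within thymol mice the r was 0.60 with Hsp90b1 and 0.50 with Calr, and within control mice 0.11 and 0.01, and the difference between the groups was not tested. Over the 17 genes of the IRE1 and XBP1 list the median r with Xbp1 was 0.01, and 9 were above 0, beside a median of 0.0003 over all other genes.

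**Figure D4:**
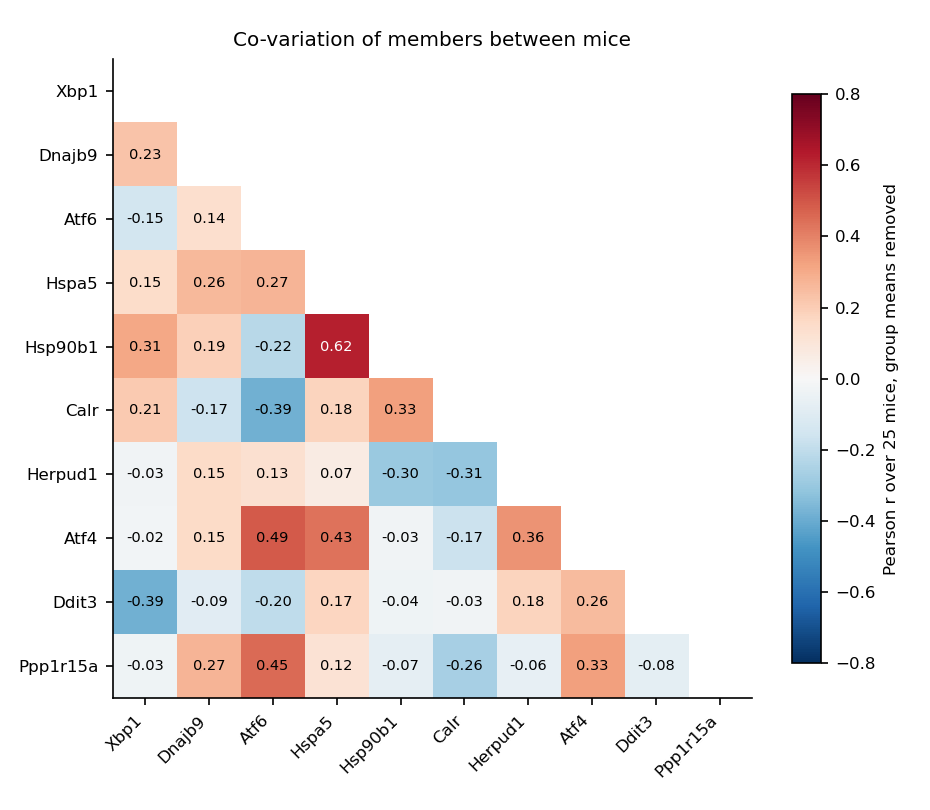
Pearson r between the levels of each pair of members over 25 mice after removal of the group means (red above 0, blue below 0). Hspa5 with Hsp90b1 at 0.62 was the called pair, and Xbp1 ranged from -0.39 to 0.31.

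Over the whole table, genes whose pattern between mice was among the most like that of Xbp1 were Mocos (r = 0.73), Snapin (0.66), Ehmt2 (0.66), Stx7 (0.65) and Taf10 (0.64), and among the least alike were Rnf40 (-0.64) and Nfib (-0.60), over 25 mice and as a description. None of these is in the lists of the stress response. For Hspa5 they included Pdia6 (0.67), Ppdpf (0.67), Cand1 (0.66) and Banp (0.65), and at the other end Pdp1 (-0.75), Rcsd1 (-0.74) and Zc3h6 (-0.74). Pdia6, a disulfide isomerase of the endoplasmic reticulum and a member of the IRE1 and XBP1 list, had an r of 0.38 with Xbp1.

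The members were also set beside 8 lists of markers for other cell types, fibre types and rapidly induced genes, and beside log2 depth. Of these 90 relations 8 had an unadjusted permutation p under 0.05 and 1 was called, and 5 of the 8 involved Calr. Over all genes of the table and the same 9 measures, 0.491% of relations were at least as far from 0 as the called relation. Calr rose and fell with the mean level of 10 fibroblast and matrix markers, with an r of 0.69 (permutation p = 0.00053, adjusted p = 0.0477) and a rho of 0.70 (permutation p = 0.00019, adjusted p = 0.0171). Without control 18 and thymol 21, the mice farthest out on the matrix level, r was 0.56 (permutation p = 0.00652, not adjusted). It was 0.77 within control and 0.58 within thymol mice. All 10 matrix markers were in the table, with a summed level of 1739 to 5030 CPM in control and 1606 to 4137 CPM in thymol mice, and control 18 was the highest mouse for both Calr and the matrix level. Of 8819 genes outside the list, 118 (1.34%) had an r with it at least as far from 0. With the first 2 principal components removed by regression the r of Calr was 0.33 (adjusted p = 0.801), and with the leukocyte, adipocyte and slow fibre levels removed it was 0.43 (adjusted p = 0.405). This call stood close to the threshold. It was lost without any of 20 mice (adjusted p up to 0.238, without control 18, where r was 0.56) and was kept without thymol 7, thymol 16, thymol 20, control 19 or control 23, the mice other than those 20.

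Calr also had an r of 0.63 with 9 markers of the leukocyte and plasma cell list of 16 (permutation p = 0.00128, adjusted p = 0.0576). Their summed level was 117.9 to 508.9 CPM in control and 118.7 to 365.1 CPM in thymol mice. The 7 not in the table were Ptprc, Adgre1, Tyrobp, Cd3e, Cd79a, Igkc and Jchain, so the level used holds no plasma cell gene. Calr had an r of -0.54 with fast fibre markers (permutation p = 0.00377, adjusted p = 0.113), which became -0.02 with the first 2 principal components removed and -0.11 with the 3 marker levels removed. Atf4 had an r of -0.50 with the leukocyte markers (permutation p = 0.0134) and 0.51 with the immediate-early genes (permutation p = 0.0117), both with an adjusted p of 0.241. With the leukocyte markers its rho was -0.61 (permutation p = 0.00201, adjusted p = 0.0905). That r was -0.69 without thymol 20 and control 18 (permutation p = 0.00051, not adjusted). Of 34 alternatives it was called in 1, without the 3 mice farthest out (r = -0.72, permutation adjusted p = 0.0189). The r with the immediate-early genes was 0.37 without control 14 and thymol 16 (permutation p = 0.0791, not adjusted). Xbp1 was not called with any list. Its r was 0.10 with the 9 leukocyte markers and -0.40 with the endothelial markers (permutation p = 0.0698, adjusted p = 0.571), and no plasma cell marker was available for comparison. Beyond the removal of these levels from the relations of Calr, the part of other cell types in the levels of the members was not tested.

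**Figure D5:**
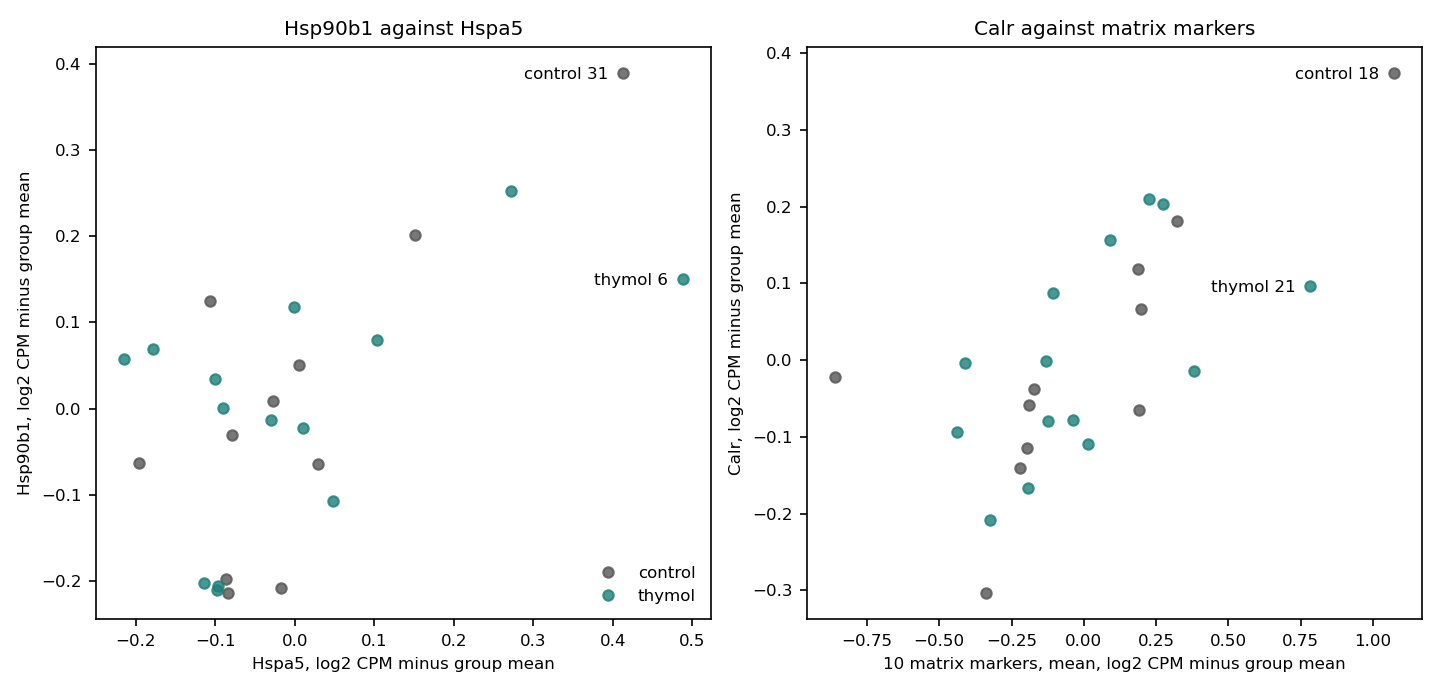
Left, Hsp90b1 against Hspa5; right, Calr against the mean of 10 fibroblast and matrix markers, all in log2 CPM minus the mean of the mouse's group, 1 point per mouse (control grey, thymol green). The r was 0.62 on the left and 0.69 on the right, and the named mice are those left out for the values of 0.46 and 0.56.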

How the data were processed

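QuantSeq 3′ libraries were made from 25 gastrocnemius muscles, 1 per mouse. The authors used STAR 2.5.3 for mapping to GRCm38 and HTSeq 0.6.1 for counting (per the labels), removed genes with few reads, applied TMM scaling and deposited log2 CPM for 8829 gene symbols. The steps of the deposited log2 values gave back the reads of each gene (100% whole within 0.05 reads), and so the depth. Counting SDs cover counting error only, because PCR copies were not marked.

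Groups came from the labels. The deposited values were compared with limma 3.58.1 in R 4.3.3 (linear model, empirical Bayes with trend, two-sided, Benjamini-Hochberg over all genes, threshold 0.05), since the file holds log2 values and not counts. The model was tested on simulated data. Relations between mice used 100000 two-sided permutations of mice within groups (numpy 2.4.6, scipy 1.17.1). Named genes were the members, list genes with an unadjusted p under 0.05, the smallest p of each list in each direction, and the 5 most and 3 least alike genes of Xbp1 and Hspa5, of which 2 are not reported here. Members and lists were chosen with earlier results of these data known. Gene positions and overlaps came from GENCODE M21 on GRCm38. Alternatives were another scaling, filter, moderation, pseudocount, covariate or block, and each mouse left out.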

Additional observations from a re-analysis of the deposited data

How the results depend on the processing

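The count of 0 genes past the adjusted threshold was the same under 11 alternatives and without each mouse (0 to 0). The number of genes with an unadjusted p under 0.05 was 234 to 346 under the alternatives and 287 to 348 without each mouse. For Xbp1 the log2 difference ranged from -0.39 to -0.24 and for Ppp1r15a from -0.46 to -0.37 over 11 alternatives, and every member moved by less than the SD between mice. Hsp90b1, Calr and Herpud1 took both signs. Control and thymol labels share 7 first numbers (16 mice), which are not stated to pair mice, and 9 such pairs had correlations of -0.18 to 0.1. With that number as a replicate block, the log2 difference of Xbp1 was -0.39, of Ppp1r15a -0.42, of Ddit3 0.36 and of Hspa5 -0.11, and 3 list genes instead of 5 had an unadjusted p under 0.05; without each mouse in turn this count was 4 to 7.

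Of the pairs of members, 0 were called by Spearman's rho, with libraries centred on their median or with library number removed, and 0 to 1 without each mouse. Of the relations with markers, 2 were called without centring on group means, with quantile normalization and without the 3 mice farthest out. In the last of these, Atf4 with the leukocyte markers was 1 of the 2. The number was 0 with median centring or with the first 2 principal components removed, and 0 to 2 without each mouse. With these components removed, the r of Calr was 0.329 with matrix (0.664 with median centring), -0.107 with leukocyte, -0.278 with adipocyte and 0.15 with skeletal muscle markers, and it was 0.426 with matrix and 0.0233 with skeletal muscle markers when 3 marker levels were removed. The cause of these changes was not tested. Alternatives to the relations with markers, and the exclusion of the 3 mice, were chosen after seeing the data. Depth limited Ppp1r15a, Dnajb9, Atf6 and Xbp1 most.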
